A study of Mus musculus with 11 samples.

Results

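The genes described here are 10 immune checkpoint genes and Ido1-linked genes measured in the skin of neonatal mice: 4 inhibitory receptors of T cells (Pdcd1, Lag3, Havcr2, Tigit), the 2 ligands of PD-1 (Cd274, Pdcd1lg2), 3 further ligands (Lgals9, Cd80, Cd86) and the tryptophan-degrading enzyme Ido1. They were chosen by gene symbol, and each symbol matched 1 of the 49315 genes in the count table. All 10 passed the filter on low counts, but Pdcd1, Tigit, Pdcd1lg2 and Ido1 passed it only through the FullDT mice.

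Whole skin of 11 Foxp3-DTR mice was profiled by bulk RNA sequencing, 1 library per mouse. In Foxp3-DTR mice the diphtheria toxin receptor is driven by the Foxp3 promoter, so that diphtheria toxin (DT) kills cells that express Foxp3, chiefly regulatory T cells (Tregs), in the whole animal and not only in the skin. The 2 PBS mice received vehicle (the Treg-sufficient controls), the 3 EarlyDT mice received DT on postnatal day 6 (P6) and P8 (ΔETreg), the 3 LateDT mice on P10 and P12 (ΔLTreg), and the 3 FullDT mice on P6, P8, P10 and P12 (ΔTreg). Skin was taken 1 day after the last dose, on P9 for EarlyDT and on P13 for LateDT and FullDT. All 11 mice, the PBS mice included, carried Foxp3-DTR, and the labels put every library in batch 1. On which day skin of the 2 PBS mice was taken is not stated in the labels, so treatment and age cannot be told apart in a comparison with PBS. FullDT and LateDT shared their harvest day and both had the late doses, so that the pair differs by the 2 early doses.

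Inhibitory receptors appear on T cells and NK cells after activation and dampen signalling from the antigen receptor when their ligands, carried by antigen-presenting cells and by many tissue cells, engage them. Several of the ligands, and the enzyme IDO1, which starts the breakdown of tryptophan to kynurenine, are well known to be induced by interferon-γ, so that an inflamed skin commonly carries receptors and ligands together. CD80 and CD86 stand on both sides of this balance, since they bind the stimulatory receptor CD28 as well as the inhibitory receptor CTLA-4.

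Libraries held between 23377571 and 34159435 counted reads, and 18375 genes were tested. On a principal component plot the FullDT libraries stood apart on the first component, which held 53% of the variance, and the LateDT libraries on the second, with 12.8%. Foxp3 itself was counted 14 to 20 times in PBS, 10 to 16 in EarlyDT, 13 to 23 in LateDT and 9 to 19 in FullDT libraries, so the groups overlapped and Foxp3 reads gave no check of the depletion. Markers of keratinocytes were abundant in every library (7780 to 10100 CPM in sum, where CPM is the count per 1000000 reads), and no library lacked the defining markers of skin. Markers of T cells summed to 47.8 to 58.9 CPM in FullDT and to 10.2 to 15.7 CPM in the other libraries, and those of mononuclear phagocytes to 289 to 420 CPM in FullDT and 53.9 to 140 CPM elsewhere. In bulk skin, more cells of a type and more RNA of a gene per cell cannot be told apart, which applies to every value that follows.

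The comparison of FullDT with PBS asked what 4 doses of toxin changed. The 6 genes that pass the filter on low counts without the FullDT mice (Lag3, Havcr2, Cd274, Lgals9, Cd80 and Cd86) were all called higher in FullDT, and for each the lowest FullDT mouse lay above the highest PBS mouse. The background was high: 21.5% of all genes tested were called in this comparison, 12.1% higher and 9.39% lower, and 26.8% had every FullDT library above every PBS library, with a median log2 fold change of -0.0059 over all genes. Pdcd1, Tigit, Pdcd1lg2 and Ido1 were also called higher, but they entered the test only because they were high in FullDT, so their calls add nothing to that count and their values are given as a description. Among the 6 genes the fitted changes ran from 1.05 on the log2 scale for Lgals9 to 3.68 for Cd274. Against LateDT of the same age the same 6 genes were called higher without overlap, where 16.8% of all genes were called, 10.7% higher and 6.11% lower, and 19.2% had every FullDT library higher. Against EarlyDT they were called higher without overlap as well, where 23.1% of all genes were called, 13.2% higher and 9.81% lower, and 23.4% had every FullDT library higher. These 3 comparisons share the FullDT mice and are not independent of each other.

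The shorter depletions gave few calls. None of the 10 genes passed the edgeR test in EarlyDT against PBS, where 0.00544% of all genes (1 gene) were called, and none had an unadjusted p under 0.05. DESeq2, which called 19 genes there, called none of the 10. In LateDT against PBS only Cd274 passed, where 4.55% of all genes were called, 1.86% higher and 2.69% lower, and 2 of the 10 had an unadjusted p under 0.05. LateDT against EarlyDT gave 0 calls among the 10 by edgeR, where 6.38% of all genes were called, 3.12% higher and 3.27% lower, with 1 at an unadjusted p under 0.05 and 0 calls by DESeq2. The plot of the level in each mouse shows these patterns gene by gene.

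**Figure D1:**
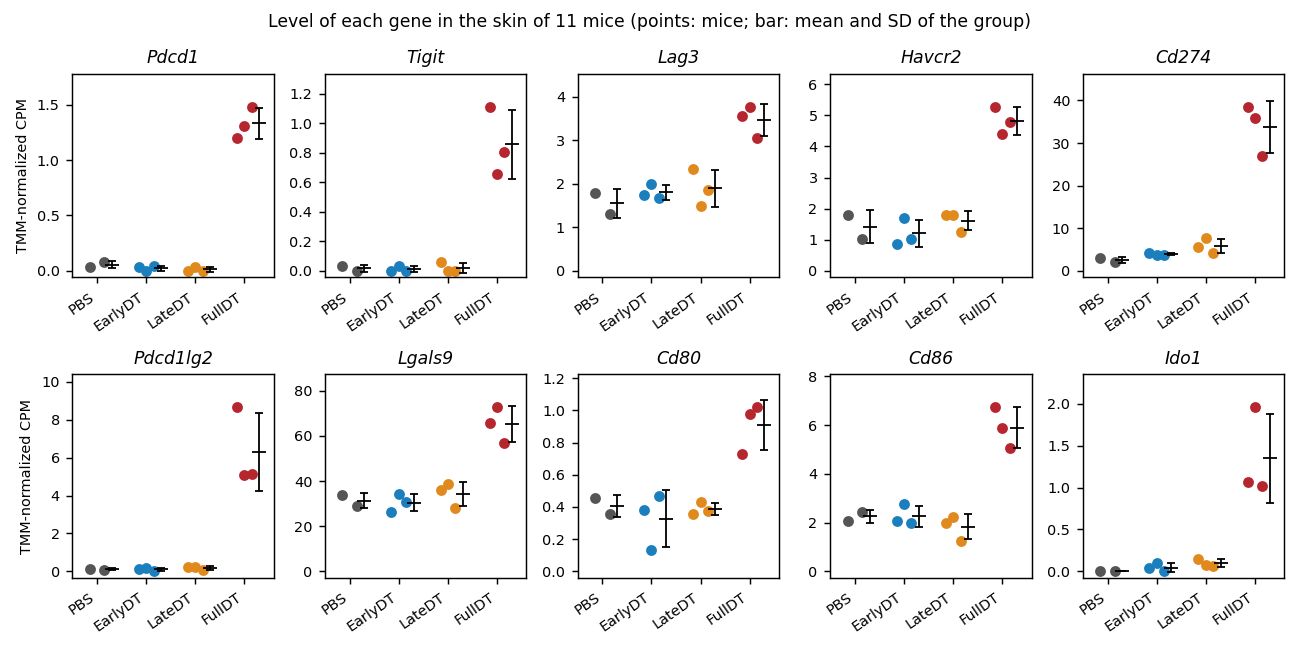
Level of each of the 10 genes in TMM-normalised CPM (vertical axes, linear, each with its own scale) for the 11 mice, by group; points are mice, and the bar gives the mean and SD of the group. In every panel the 3 FullDT mice lie above all other mice. Against PBS, LateDT and EarlyDT taken singly, 26.8%, 19.2% and 23.4% of all genes tested have every FullDT library higher. Pdcd1, Tigit, Pdcd1lg2 and Ido1 passed the filter on low counts only through FullDT. Cd274 is also higher in LateDT (4.2 to 7.65 CPM) than in PBS (2.11 to 3.12 CPM).

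Among the inhibitory receptors, Pdcd1 (chromosome 1, 94038305 to 94052553 of GRCm38, minus strand) encodes PD-1, which recruits a phosphatase to the T cell synapse. It was counted 1 and 2 times in the PBS libraries, 1, 0 and 1 times in EarlyDT, 0, 1 and 0 times in LateDT, and 28, 44 and 48 times in FullDT. Pdcd1 was thus at or under the floor of 3 counts in every mouse outside FullDT, and no fold was computed among those groups. In FullDT it stood at 1.33 ± 0.143 CPM (SD, n = 3). The count ratio to PBS, scaled for library size, was 24.0 with a 95% counting interval of 8.02 to 118, and to LateDT it was 122 (21.5 to 4870). The adjusted p-values of edgeR's quasi-likelihood test were 0.000166 and 2.35e-05. Since Pdcd1 passed the filter only through FullDT, they are given as a description.

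Tigit (chromosome 16, 43648867 to 43664146, minus strand) encodes a receptor of T and NK cells that competes with the stimulatory receptor CD226 for the ligand CD155. Its counts were 1 and 0 in PBS, 0, 1 and 0 in EarlyDT, 2, 0 and 0 in LateDT, and 26, 22 and 26 in FullDT. Like Pdcd1, Tigit did not exceed 3 counts in any of the 8 mice outside FullDT. Its level in FullDT was 0.857 ± 0.235 CPM (SD, n = 3). The count ratio was 44.4 against PBS (7.73 to 1780) and 37.7 against LateDT (10.1 to 317), with adjusted p-values of 0.00118 and 0.000422 by edgeR. Tigit also passed the filter only through FullDT, so these p-values are a description. The width of these intervals comes from the single count in PBS and the 2 counts in LateDT.

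Lag3 (chromosome 6, 124904361 to 124911705, minus strand), a CD4-related receptor that binds MHC class II, was already well above the floor in control skin. It was counted 51 and 33 times in PBS, 50, 61 and 39 times in EarlyDT, 79, 38 and 59 times in LateDT, and 83, 127 and 99 times in FullDT. In CPM the FullDT mice (3.06 to 3.77) lay above LateDT (1.49 to 2.35) and PBS (1.31 to 1.79). The log2 fold change was 1.15 ± 0.219 (SE) against PBS with an adjusted p of 0.00357, and 0.85 ± 0.185 against LateDT with an adjusted p of 0.00892. Without PBS mouse 2 the first of these was 0.95 with an adjusted p of 0.0507.

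Havcr2 (chromosome 11, 46454935 to 46481255, plus strand) encodes TIM-3, a receptor found on T cells and also on macrophages and dendritic cells. Its counts were 51 and 26 in PBS, 25, 52 and 24 in EarlyDT, 60, 46 and 40 in LateDT, and 123, 148 and 155 in FullDT. The PBS, EarlyDT and LateDT mice overlapped, whereas FullDT (4.39 to 5.27 CPM) lay above all of them (0.871 to 1.80 CPM). The log2 fold change was 1.75 ± 0.294 against PBS (adjusted p = 0.00164) and 1.58 ± 0.248 against LateDT (adjusted p = 0.00133).

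Cd274 (chromosome 19, 29367455 to 29388095, plus strand) encodes PD-L1, the broadly expressed ligand of PD-1. It was counted 89 and 53 times in PBS, 119, 113 and 89 times in EarlyDT, 191, 195 and 134 times in LateDT, and 899, 1208 and 869 times in FullDT. The mean level was 2.61 ± 0.711 CPM in PBS (SD, n = 2), 3.89 ± 0.225 in EarlyDT, 5.84 ± 1.73 in LateDT and 33.8 ± 6.12 in FullDT (n = 3 each). No 2 groups overlapped: every EarlyDT mouse lay above both PBS mice, every LateDT mouse above every EarlyDT mouse, and every FullDT mouse above every LateDT mouse. The share of all genes so separated was determined only for pairs with FullDT. Separation of the other groups thus has no background beside it. In FullDT, Cd274 was 12.8-fold higher than in PBS (log2 3.68 ± 0.266, adjusted p = 8.17e-06) and 5.81-fold higher than in LateDT (log2 2.54 ± 0.206, adjusted p = 1.65e-05).

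The smaller steps of Cd274 were less certain. LateDT exceeded PBS by 1.14 ± 0.266 on the log2 scale, with an adjusted p of 0.0377, the only call among the 10 genes in that comparison. The change was about as large when only these groups were fitted (1.15, adjusted p = 0.177) and without LateDT mouse 1 (1.15, 0.0583) or 2 (0.92, 0.0603), but the call was lost. It was lost also without PBS mouse 1 (1.46, 0.0827) or 2 (0.89, 0.202), where 1 PBS mouse is left and is assumed to vary like the other groups. EarlyDT against PBS gave 0.56 ± 0.274 with an adjusted p of 1, and LateDT against EarlyDT gave 0.58 ± 0.223 with an adjusted p of 0.152. Skeletal muscle markers summed to 1660 to 6390 CPM in LateDT and 1320 to 1370 CPM in PBS, those of phagocytes to 53.9 to 138 and 112 to 140 CPM, and their part in the Cd274 result was not tested. An antisense gene of the GENCODE annotation, AC119228.1, has exons that overlap those of Cd274, its reads were not analysed here, and the sources do not state whether reads were counted by strand.

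Pdcd1lg2 (chromosome 19, 29410919 to 29471161, plus strand) encodes PD-L2, whose expression is known to be mostly limited to dendritic cells and macrophages. It lies 22823 bases downstream of Cd274 on the same strand. Its counts were 4 and 2 in PBS, 3, 5 and 1 in EarlyDT, 7, 6 and 2 in LateDT, and 202, 172 and 166 in FullDT. The 3 groups without the full course overlapped at no more than 0.235 CPM, and FullDT stood at 5.11 to 8.66 CPM. Pdcd1lg2 was 53.9-fold higher than in PBS (log2 5.75 ± 0.484, adjusted p = 1.83e-05) and 36.9-fold higher than in LateDT (log2 5.21 ± 0.374, adjusted p = 7.72e-06). These p-values are a description, since Pdcd1lg2 was tested only because of its FullDT counts. Its antisense neighbour A930007I19Rik, which lies across the same locus, held at most 42 counts in any library, far under the FullDT counts of Pdcd1lg2. It summed to 359 counts over the 11 libraries, whereas Pdcd1lg2 held at most 7 in any mouse outside FullDT. Whether reads were counted by strand is not stated, and its part in these low counts was not tested.

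The proportion of the 2 PD-1 ligands was examined after their values were seen. Pdcd1lg2 passed the filter on low counts only through FullDT, so a higher proportion in FullDT adds nothing to its counts. The ratios and their p-values are given as a description. Pdcd1lg2 counts were 22.5%, 14.2% and 19.1% of Cd274 counts in the FullDT mice, 3.66%, 3.08% and 1.49% in LateDT, 2.52%, 4.42% and 1.12% in EarlyDT, and 4.49% and 3.77% in PBS. All 3 FullDT mice lay above the other 8. On the log2 scale the ratio was 2.66 higher in FullDT than in LateDT (two-sided exact permutation p = 0.1, adjusted p = 0.4 over 4 ratios) and 1.92 higher than in PBS (p = 0.2, adjusted p = 0.4 by the same exact test). These raw p-values are the smallest that 3 against 3 and 3 against 2 mice can give.

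The promoters of the members that carry the PD-1 axis are shown because both ligands and the receptor were higher in the same mice, together with that of Lgals9, the only one of 7 windows searched that held a motif. Each line gives the 250 bases before the RefSeq transcription start on GRCm38.p6, 5′ to 3′ on the gene's own strand: Cd274 at chr19:29367188-29367437 (plus), Pdcd1lg2 at chr19:29410669-29410918 (plus), Pdcd1 at chr1:94052554-94052803 (minus) and Lgals9 at chr11:78984925-78985174 (minus). Capitals mark a match to the core of the interferon-stimulated response element.
Cd274: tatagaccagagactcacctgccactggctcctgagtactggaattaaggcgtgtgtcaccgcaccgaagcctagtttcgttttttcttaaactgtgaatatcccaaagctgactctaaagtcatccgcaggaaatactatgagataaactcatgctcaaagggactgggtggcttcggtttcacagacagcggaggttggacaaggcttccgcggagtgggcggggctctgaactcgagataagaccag
Pdcd1lg2: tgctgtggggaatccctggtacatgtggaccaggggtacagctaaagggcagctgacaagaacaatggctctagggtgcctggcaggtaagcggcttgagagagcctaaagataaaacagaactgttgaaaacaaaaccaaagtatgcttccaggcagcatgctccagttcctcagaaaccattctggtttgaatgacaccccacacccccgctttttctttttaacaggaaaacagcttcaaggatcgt
Pdcd1: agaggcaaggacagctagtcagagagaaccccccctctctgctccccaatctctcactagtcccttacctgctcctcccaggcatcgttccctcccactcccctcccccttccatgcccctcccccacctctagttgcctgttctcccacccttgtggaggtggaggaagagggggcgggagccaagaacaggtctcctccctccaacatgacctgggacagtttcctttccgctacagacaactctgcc
Lgals9: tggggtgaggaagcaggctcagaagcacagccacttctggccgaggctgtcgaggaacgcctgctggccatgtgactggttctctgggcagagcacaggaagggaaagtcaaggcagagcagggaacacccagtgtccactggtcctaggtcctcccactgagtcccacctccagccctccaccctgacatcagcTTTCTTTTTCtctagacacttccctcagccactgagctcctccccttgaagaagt

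The RefSeq table held such a window for 7 of the 10 genes, and those of Ido1, Lag3 and Cd86 were not analysed. Both strands were searched for the core of the interferon-stimulated response element, GAAA repeated after 2 bases of any kind, which 2.98% of 32851 promoters of this length hold, and for the interferon-γ activated site, TTCNNNGAA, which 7.02% hold. The single match among the 7 was TTTCTTTTTC in Lgals9, at positions -55 to -46 from the start. The match is a description of letters, and no match in the other 6 windows says only that these letters are not there.

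Of the further ligands, Lgals9 (chromosome 11, 78962974 to 78984946, minus strand) encodes galectin-9, a sugar-binding protein that binds TIM-3 and is made by many tissue cells. It was counted 960 and 731 times in PBS, 759, 1036 and 714 times in EarlyDT, 1213, 981 and 902 times in LateDT, and 1533, 2447 and 1836 times in FullDT. FullDT mice (56.8 to 72.7 CPM) lay above all others (26.4 to 38.5 CPM), and the other groups overlapped. The log2 fold change was 1.05 ± 0.151 against PBS (adjusted p = 0.000647) and 0.93 ± 0.131 against LateDT (adjusted p = 0.000679).

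Cd86 (chromosome 16, 36603869 to 36666081, minus strand) and Cd80 (chromosome 16, 38455561 to 38496335, plus strand) encode the B7 proteins of antigen-presenting cells. Cd86 was counted 59 and 61 times in PBS, 59, 84 and 46 times in EarlyDT, 67, 57 and 40 times in LateDT, and 157, 198 and 164 times in FullDT. Every FullDT mouse exceeded every other mouse, and the change was 1.39 ± 0.242 on the log2 scale against PBS (adjusted p = 0.00207) and 1.69 ± 0.213 against LateDT (adjusted p = 0.000306). Cd80 was rarer, with 13 and 9 counts in PBS, 11, 4 and 11 in EarlyDT, 12, 11 and 12 in LateDT, and 17, 33 and 33 in FullDT. The Cd80 change was 1.16 ± 0.378 against PBS (adjusted p = 0.0499) and 1.25 ± 0.327 against LateDT (adjusted p = 0.0238).

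The size of the Cd80 change against PBS hardly depended on the analysis (1.16 with DESeq2, 1.15 with scaling by total counts), but its adjusted p did, at 0.138 and 0.0571. Leaving out any 1 of the 5 mice gave changes of 1.00 to 1.35 and adjusted p-values of 0.0609 to 0.250. Against LateDT, Cd80 lost its call without LateDT mouse 1 or 3 or FullDT mouse 2 or 3 (changes of 1.16 to 1.23, adjusted p from 0.0570 to 0.0795). The ratio of Cd80 to Cd86, also examined after the values were seen, was 10.8%, 16.7% and 20.1% in FullDT, 17.9%, 19.3% and 30% in LateDT, and 22.0% and 14.8% in PBS. These ranges overlapped (exact permutation p = 0.3 against LateDT and 0.6 against PBS; adjusted p = 0.4 and 0.6).

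Ido1 (chromosome 8, 24584136 to 24597009, minus strand) was not counted in either PBS library, which allows up to 0.105 and 0.120 CPM at the floor of 3 counts. EarlyDT mice held 1, 3 and 0 counts, LateDT mice 5, 2 and 2, and FullDT mice 25, 66 and 33. Every FullDT mouse (1.02 to 1.96 CPM) lay above every LateDT mouse (0.0626 to 0.149 CPM), and FullDT mouse 2 held the highest value. Ido1 in FullDT was at least 12-fold higher than the PBS floor of 3 counts per library (adjusted p = 0.000442). Against LateDT it was 13.3-fold higher (log2 3.73 ± 0.492, adjusted p = 0.000623), with a count ratio of 14.0 and a counting interval of 7.16 to 31.4. As Ido1 passed the filter only through FullDT, the p-values of these FullDT comparisons are a description. All 3 LateDT mice had Ido1 reads and neither PBS mouse had any, a difference with an adjusted p of 0.190.

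**Figure D2:**
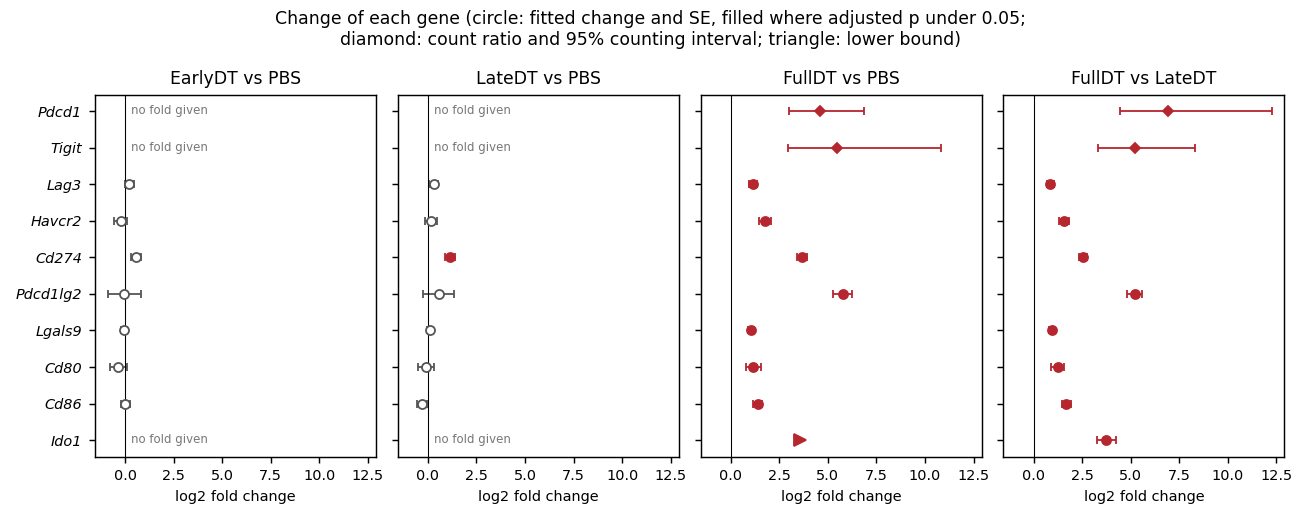
Log2 fold change of each gene with its standard error (circles, horizontal axis) in 4 comparisons; filled red circles have an adjusted p under 0.05, the triangle is the lower bound of 12-fold for Ido1, and "no fold given" marks genes at or near 0 counts. Diamonds are the count ratios of Pdcd1 and Tigit with their 95% counting intervals, which rest on 1 to 3 counts in the group compared. Against PBS and LateDT the FullDT points lie above 0 for every gene, with Pdcd1, Tigit and Pdcd1lg2 farthest out, and Cd274 is the only filled point of LateDT against PBS. Pdcd1, Tigit, Pdcd1lg2 and Ido1 were tested only because they were high in FullDT.

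Per kilobase of exon, the order of the levels changed with the full course. In PBS, Lgals9 led at 14.7 ± 1.49 CPM per kb (SD, n = 2). Lag3, Cd274, Cd86 and Havcr2 followed between 0.519 and 0.735 CPM per kb, each overlapping its neighbour in the order. Cd80 (0.110), Pdcd1lg2 (0.0560), Pdcd1 (0.0297), Tigit (0.0191) and Ido1 (0) came last, and from Pdcd1lg2 down neighbours overlapped. In FullDT, Lgals9 still led at 30.4 ± 3.73 CPM per kb (n = 3), Cd274 came next at 9.32 ± 1.69 and then Pdcd1lg2 at 3.21 ± 1.04, none of them overlapping the next gene. Havcr2 (1.77), Lag3 (1.64) and Cd86 (1.61) overlapped, as did Tigit (0.933), Ido1 (0.740) and Pdcd1 (0.689), and Cd80 was lowest at 0.246 ± 0.0426 CPM per kb. In LateDT, Cd274 (1.61 CPM per kb) stood above Lag3 (0.900) without overlap, as it did in EarlyDT (1.07 against 0.856).

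Because T cell and phagocyte markers were higher in FullDT, each gene was also set against marker genes of the same mouse. Pdcd1 counts were 3.85%, 5.02% and 5% of the summed counts of Cd3d, Cd3e and Cd3g, the chains of the CD3 complex, in the FullDT mice and at most 0.687% in any other mouse. Tigit counts were 3.57%, 2.51% and 2.71% of these CD3 counts in FullDT and at most 0.415% elsewhere. Both receptors stood higher relative to CD3 in all 3 FullDT mice than in the other 8. Since both passed the filter on low counts only through FullDT, this separation and the ratio tests of both genes are a description.

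Lag3 showed no such separation, at 11.4%, 14.5% and 10.3% of CD3 counts in FullDT against 10.9% to 16.4% in LateDT and 20.2% and 11.3% in PBS. Havcr2 was 16.9%, 16.9% and 16.1% of CD3 counts in FullDT, above the 3 LateDT mice (10.3% to 13.1%) but between the PBS mice (20.2% and 8.93%). The differences on the log2 scale against LateDT were 4.70 for Pdcd1, 3.80 for Tigit, 0.47 for Havcr2 and -0.23 for Lag3. By the two-sided exact permutation test the raw p was 0.1, the smallest possible with 3 against 3, for Pdcd1, Tigit and Havcr2 and 0.3 for Lag3. Adjusted over all 60 ratio tests, no p was below 0.387.

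The ratios to PBS depended on the T cell marker. Trac, the constant chain of the αβ T cell receptor, was counted 2 to 9 times in each mouse outside FullDT and 130, 138 and 158 times in FullDT, and Cd8a 0 to 3 times against 238, 236 and 296 times, whereas Cd3e was already at 76 to 195 counts outside FullDT. As a percent of Trac counts, Pdcd1 was 21.5%, 31.9% and 30.4% in FullDT, 33.3% and 40.0% in PBS, and 0%, 14.3% and 0% in LateDT. With Trac as the denominator, a choice made after the data were seen, the Pdcd1 difference against PBS became -0.84 on the log2 scale, that of Tigit -0.33 and that of Havcr2 -3.25. Against LateDT, the differences with Trac were 0.96 for Pdcd1, 0.06 for Tigit and -3.27 for Havcr2. The Trac counts outside FullDT are so few that these values carry a wide counting error.

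**Figure D3:**
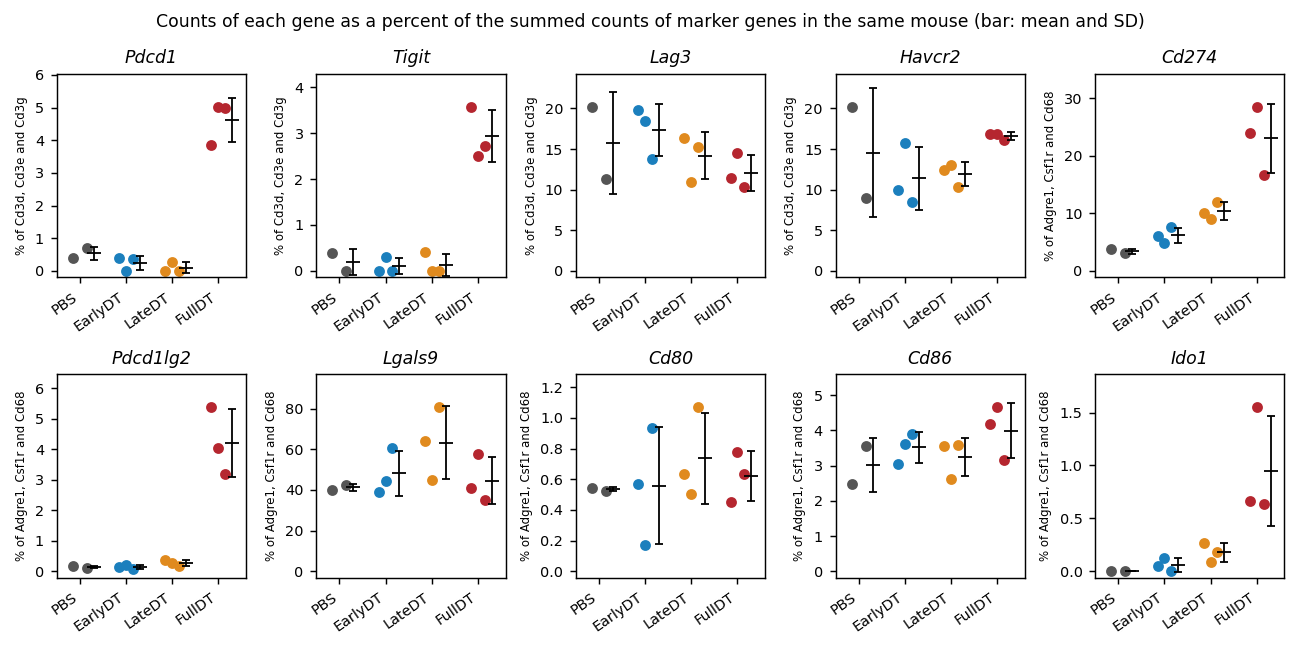
Counts of each gene as a percent of the summed counts of marker genes in the same mouse (vertical axes, linear, from 0): CD3 chains for the 4 receptors, and Adgre1, Csf1r and Cd68 for the ligands and Ido1; points are mice, and the bar gives mean and SD. Pdcd1, Tigit, Cd274, Pdcd1lg2 and Ido1 are highest in all 3 FullDT mice, while Lag3, Lgals9, Cd80 and Cd86 overlap between FullDT and LateDT. Of the former, all but Cd274 passed the filter on low counts only through FullDT.

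The ligands and Ido1 were set against Adgre1 (F4/80), Csf1r and Cd68, markers of macrophages and related cells. Cd274 counts were 3.73% and 3.09% of these marker counts in PBS, 6.15%, 4.86% and 7.56% in EarlyDT, 10.1%, 8.95% and 12% in LateDT, and 23.9%, 28.5% and 16.7% in FullDT. The 4 groups did not overlap, and with Ptprc (CD45), which all leukocytes carry, as the denominator the direction of the FullDT differences stayed. How often such ratios of other genes separate the groups was not determined. Pdcd1lg2 was 3.18% to 5.38% in FullDT and at most 0.371% elsewhere, and Ido1 0.633% to 1.55% in FullDT and at most 0.265% elsewhere. Lgals9, Cd80 and Cd86 overlapped between FullDT and LateDT and between FullDT and PBS. The log2 differences of FullDT against LateDT were 3.79 for Pdcd1lg2, 2.17 for Ido1 and 1.13 for Cd274, each with an exact permutation p of 0.1 and an adjusted p of 0.387. Since Pdcd1lg2 and Ido1 passed the filter on low counts only through FullDT, their ratios and p-values are a description. Which cells carried the reads was not tested.

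Genes of the same pathways were taken from fixed lists, whose counts stand against shares over all genes of 12.1% called higher and 9.39% lower in FullDT against PBS, 10.7% and 6.11% in FullDT against LateDT, and 1.86% and 2.69% in LateDT against PBS. Which list genes passed the filter on low counts only through the FullDT mice was not determined. Such genes were tested because they were high in FullDT and add nothing to a count of higher calls. Of 12 other inhibitory receptors, 11 were tested and 7 rose in FullDT against PBS, with a median log2 fold change of 0.867 over the list beside -0.0059 over all genes. Cd160, a receptor of NK and cytotoxic T cells, rose by 1.82 ± 0.279, Lair1, a collagen receptor of leukocytes, by 3.49 ± 0.559, and Vsir (VISTA) by 0.55 ± 0.0993 on the log2 scale. Klrg1, from 0 to 2 counts in PBS to 13 to 19 in FullDT, also passed, but was tested only because it was high in FullDT. Ctla4 did not pass: it held 13 and 3 counts in PBS and 12, 14 and 13 in FullDT (log2 0.56 ± 0.525, adjusted p = 0.490). Against LateDT, 8 of the 11 rose. In LateDT against PBS, where 4.55% of all genes were called, 0 of the 11 passed.

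Other inhibitory ligands moved in both directions, with 5 of 11 tested genes called against PBS (21.5% of all genes) and a list median of -0.003. Fgl2 (1.19 ± 0.161), Tnfrsf14 (HVEM, 1.74 ± 0.285) and Pvr (CD155, the ligand of TIGIT, 0.69 ± 0.117) rose, and Hmgb1 (-0.25 ± 0.0592) and Vtcn1 (-0.41 ± 0.0990) fell. The same 5 genes were called in the same directions against LateDT.

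Costimulatory receptors rose in FullDT in 9 of 10 cases against PBS (list median 3.14) and in 10 of 10 against LateDT (median 2.55). These counts include genes such as Slamf1 and Cd40lg, at most 2 counts in any mouse outside FullDT. Such genes were tested only because they were high in FullDT. Icos was counted 6 to 7 times in PBS and 95 to 96 times in FullDT (log2 3.73 ± 0.402). It too was tested only because it was high in FullDT. Cd2 changed by 2.99 ± 0.343 and Tnfrsf9 (4-1BB) by 3.56 ± 0.437. Of the costimulatory ligands, 6 of 9 could be tested and 3 rose against PBS: Cd40 by 2.70 ± 0.248, Cd48 by 1.78 ± 0.330 and Icosl by 1.06 ± 0.121. Icosl was also the only one called in LateDT against PBS (0.63 ± 0.121, adjusted p = 0.0172).

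Beside Ido1, the tryptophan and kynurenine list had 11 tested genes of 15, and 6 were called against PBS (21.5% of all genes), 3 in each direction, with a median of 0.198. Its related enzyme Ido2 (0 to 9 counts in PBS, 30 to 46 in FullDT), Kmo, which acts on kynurenine (0.92 ± 0.251), and Wars, the tryptophanyl-tRNA synthetase (0.46 ± 0.0866), rose. Haao (-1.23 ± 0.250), Kyat1 and the amino acid transporter Slc7a5 (-0.45 ± 0.0874) fell. Against LateDT of the same age Ido2, Kmo and Wars were again higher and Slc7a5 lower (-0.38, adjusted p = 0.00706), Kyat3 was also lower (-0.47, adjusted p = 0.00684), and Haao (-0.72, adjusted p = 0.0597) and Kyat1 (-0.10, adjusted p = 0.296) did not pass. Tdo2, the other enzyme of the first step, was at 2 to 3 counts in PBS and 6 to 11 in FullDT and did not pass the filter. Of 7 genes of the aryl hydrocarbon receptor, which kynurenines can activate, 4 were called: Ahr (0.49 ± 0.140) and Cyp1b1 (0.31 ± 0.0928) rose, while its classical targets Ahrr (-1.30 ± 0.228) and Cyp1a1 (-0.80 ± 0.141) fell. Ahrr was already lower in LateDT than in PBS (-0.96, adjusted p = 0.0374) and was not called in FullDT against LateDT (-0.34, adjusted p = 0.325), where Ahr and Cyp1b1 were called higher and Cyp1a1 lower.

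All 10 genes of the interferon-γ signalling list rose in FullDT against PBS (median 1.75) and against LateDT (median 1.60). Of these, Ifng was tested only because it was high in FullDT. Ifng itself was counted 3 and 0 times in PBS, 3, 0 and 0 times in EarlyDT, 1, 4 and 0 times in LateDT, and 54, 82 and 57 times in FullDT. Irf1, a transcription factor downstream of the receptor, stood at 13.6 and 10.9 CPM in PBS, 15, 15.5 and 19.1 in EarlyDT, 22.3, 37.0 and 19.5 in LateDT, and 137, 145 and 110 in FullDT. Like Cd274, Irf1 did not overlap between any 2 groups, again without a share over all genes for the pairs other than those with FullDT. Irf1 also rose in LateDT against PBS (1.09 ± 0.252, adjusted p = 0.0365), while Ifng stayed at 4 counts or fewer.

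**Figure D4:**
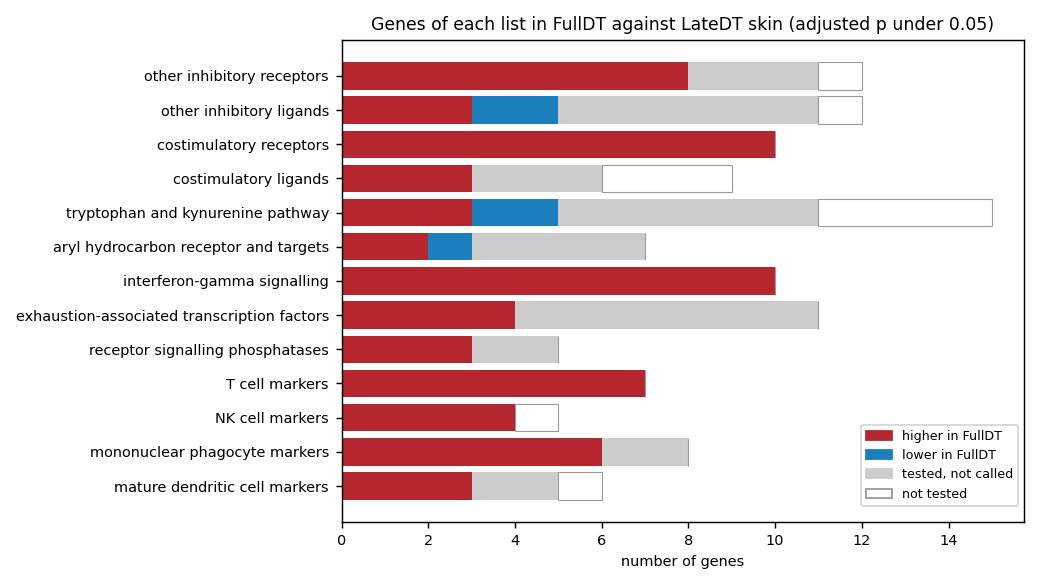
Number of genes in each fixed list that were higher (red), lower (blue), tested but not called (grey) or not tested (white) in FullDT against LateDT skin at an adjusted p under 0.05. All tested costimulatory receptors (10), interferon-γ signalling genes (10) and T cell markers (7) were higher, while inhibitory ligands and kynurenine genes went both ways. Genes with few counts outside FullDT, such as Slamf1, Cd40lg, Icos, Ifng, Tbx21, Ccr7, Cd8a and Cd8b1, were tested only because they were high in FullDT.

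Among 11 transcription factors linked to T cell exhaustion, 3 rose against PBS (median 0.254), where 21.5% of all genes were called and 12.1% were called higher. They were Tbx21, from 1 count in each PBS mouse to 48 to 59 in FullDT, Eomes, from 0 to 1 counts to 15 to 29, and Batf (1.82 ± 0.346). Tbx21, at most 11 counts outside FullDT, and Eomes, at most 4, were tested only because they were high in FullDT. So few calls say little about the list. Tbx21, which directs type 1 responses, was also called in LateDT against PBS, where it held 5 to 11 counts (adjusted p = 0.0340). Tox, a factor closely tied to exhaustion, was not called (0.10 ± 0.244, adjusted p = 0.841). Of 5 phosphatases that act below inhibitory receptors, Ptpn22 (1.86 ± 0.253), Ptpn6 (SHP-1, 0.63 ± 0.0959) and Inpp5d (SHIP-1, 1.22 ± 0.232) rose against PBS. In LateDT against PBS, 0 of the 5 passed (4.55% of all genes were called).

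For 3 of the members the genes with the most similar pattern were found by the root mean square distance of log2 CPM over the 11 libraries, after each gene was centred on its PBS mean, among 14968 genes of at least 1 CPM. The nearest to Cd274 were H2-Q4 (distance 0.196), Irf1 (0.213) and Gbp7 (0.219), and the mean level of Irf1 went from 12.2 CPM in PBS to 16.6, 26.3 and 131 in EarlyDT, LateDT and FullDT. The nearest to Ido1 were H2-T10 (0.476), the immunoproteasome subunit Psmb9 (0.493) and the chemokine Ccl2 (0.523). The nearest to Pdcd1 were the complement gene C6 (0.330), the chemokine receptor Cxcr6 (0.478) and the inducible nitric oxide synthase Nos2 (0.496). H2-Q4 and H2-T10 belong to a family of near-identical genes whose reads may be shared, so their values are uncertain. The libraries share their group structure, and the distances are a description.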

How the data were processed

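Whole-skin RNA (4 groups, 11 mice) had been extracted from biopsies, sequenced as paired ends, trimmed with Trimmomatic 0.36, mapped to GRCm38 with STAR 2.5.2b and counted over exons with featureCounts of Subread 1.5.2, per the study's methods and the submitters' processing notes. The authors deposited raw counts per gene, without normalisation or filtering. The annotation release, the strand setting and whether libraries were selected for poly(A) are not given in the sources used here. Gene positions and exon lengths come from GENCODE M21 (GRCm38), and 174 genes had no symbol in the deposited counts.

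The counts went into edgeR 4.0.16 under R 4.3.3. Its filterByExpr by group left 18375 genes, libraries were scaled by TMM, and 1 model with a mean for each group was fitted to all 11 libraries. The quasi-likelihood test was applied to each of the 6 pairs of groups, and p-values were adjusted by Benjamini and Hochberg's method over the whole set of tested genes, with a threshold of 0.05. The standard error of a log2 fold change was derived from its F statistic. The study used DESeq2, which was run as an alternative (version 1.42.0). CPM are TMM-normalised. Where the lower group had 0 counts, the fold is a lower bound against a floor of 3 counts per library, with 1 to 3 counts in sum it is a count ratio with its interval, and where no library of either group exceeded 3 counts none is given. Intervals cover counting error at 95% only. Ratios to markers (0.5 added to the counts) were compared by two-sided exact permutation tests in scipy 1.17.1. The steps were tested on simulated data. The depth of 23377571 to 34159435 reads puts the floor of 3 counts at 0.0891 to 0.129 CPM.

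Replicates within a group differed by more than sampling noise, so each mouse was counted once. The 10 genes and the lists were chosen with earlier results of these data known. Named genes were all 10 members, up to 3 called genes with the smallest p from each list in 3 comparisons (FullDT or LateDT against PBS, FullDT against LateDT), and the 3 genes nearest to Ido1, Cd274 and Pdcd1. Ctla4, Foxp3, Ifng, Ido2, Tdo2, Kyat1, Hmgb1, Vtcn1, Tox and the marker genes used as denominators were named outside this rule, after their values were seen. Alternatives were other scaling, filters, tests and fits, and each mouse left out in turn.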

Additional observations from a re-analysis of the deposited data

How the results depend on the processing

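The 6 genes that pass the filter without the FullDT mice stayed higher in FullDT than in PBS, LateDT and EarlyDT under every alternative run. The exceptions at the threshold were Cd80 and Lag3, whose values stand above. Pdcd1, Tigit, Pdcd1lg2 and Ido1 stayed higher too, which adds nothing, since they entered the test only through FullDT. The number of the 10 genes called in LateDT against PBS was 1 and fell to 0 when only these groups were fitted, and ranged from 0 to 1 with each mouse left out. In LateDT against EarlyDT it was 0, became 1 (Cd274) when every gene with at least 1 count was kept, and ranged from 0 to 1 with each mouse left out.

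Changes that were not called could change sign when 1 mouse was left out. In EarlyDT against PBS the log2 fold change then ranged from -0.59 to 0.23 for Havcr2, from -0.52 to 0.43 for Pdcd1lg2, from -0.15 to 0.059 for Lgals9, from -0.68 to 0.051 for Cd80 and from -0.16 to 0.14 for Cd86. In LateDT against PBS the range was -0.15 to 0.63 for Havcr2 and -0.24 to 0.10 for Cd80, and in LateDT against EarlyDT it was -0.11 to 0.21 for Lag3 and -0.14 to 0.59 for Cd80.

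Ratios to markers depended on the marker. With Ptprc as the denominator the FullDT difference against PBS became -0.11 for Havcr2, -0.86 for Lgals9, -0.79 for Cd80 and -0.53 for Cd86, and against LateDT -0.17 for Havcr2 and -0.037 for Cd86. With Trac, chosen after the data were seen, it became -0.84 for Pdcd1, -3.25 for Havcr2 and -0.33 for Tigit against PBS and -3.27 for Havcr2 against LateDT. With each mouse left out the difference against PBS ranged from -0.77 to 0.06 for Lag3, from -0.29 to 0.87 for Havcr2, from -0.13 to 0.23 for Lgals9 and from -0.032 to 0.35 for Cd80, that of Cd80 against LateDT from -0.48 to 0.064, and that of the Cd80 to Cd86 ratio against PBS from -0.54 to 0.017.

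Over all genes, the number called moved by more than 1.5 times in several settings: LateDT against PBS from 836 to 1790 with every gene kept, 154 with these groups fitted alone, and 292 or 377 without PBS mouse 1 or 2; FullDT against PBS from 3946 to 2026 without PBS mouse 2; FullDT against LateDT from 3096 to 1987 without FullDT mouse 1; LateDT against EarlyDT from 1173 to 2173 with every gene kept, 540 with these groups fitted alone and 353 to 619 without an EarlyDT mouse; and EarlyDT against PBS from 1 to 54 with every gene kept, 19 with DESeq2, 7 without PBS mouse 1 and 0 in the remaining settings that moved it. The cause was not tested.

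Among named list genes, 42 of 119 alternative values in LateDT against PBS lost their call, 27 of 623 in FullDT against PBS and 22 of 642 in FullDT against LateDT, all in the same direction. In LateDT against PBS, Irf1, Icosl and Ahrr lost theirs when these groups were fitted alone (adjusted p = 0.175, 0.135 and 0.148). Without PBS mouse 1 or 2, Irf1 had 0.109 and 0.191, Icosl 0.0977 and 0.0902, and Tbx21 0.182 and 0.131, and Ahrr had 0.245 without PBS mouse 1, with log2 changes of 0.94 to 1.26, 0.62 to 0.63, 2.54 to 2.71 and -0.65. Without a LateDT mouse, Tbx21 had 0.0869 (mouse 1) or 0.0600 (mouse 2) and Ahrr 0.0556 (mouse 2) or 0.0745 (mouse 3). List counts moved by over 1.5 times in 53 of 242 settings in LateDT against PBS, 26 of 242 in FullDT against PBS and 21 of 264 in FullDT against LateDT.

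No paired analysis was possible because the labels give no replicate numbers that groups share. Pdcd1, Tigit, Pdcd1lg2 and Ido1 had fewer than 10 counts in each mouse outside FullDT, which limits the precision of their values after the shorter depletions.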

Other observations

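Markers of the cells that commonly carry the ligands were also measured. Among 5 tested markers of mature dendritic cells, Ccr7 (3 counts in each PBS mouse, 37 to 45 in FullDT) and Ccl22 (log2 2.61 ± 0.201, adjusted p = 1.15e-05) rose in FullDT against PBS. Ccr7, at most 12 counts outside FullDT, was tested only because it was high in FullDT. Cd83 rose only in the comparison with LateDT (0.70 ± 0.209, adjusted p = 0.0432), and against PBS it had 0.31 ± 0.232 (adjusted p = 0.376). Fscn1 (-0.095 ± 0.0804, adjusted p = 0.442) and Flt3 (-0.11 ± 0.331, adjusted p = 0.848) were not called against PBS. The list summed to 130 CPM on average in PBS and 134 in FullDT. Fscn1 alone held 125 CPM of this in PBS and 117 in FullDT, so the sum says little about the other markers. Genes listed as Langerhans cell markers split: Cd74, the invariant chain of MHC class II, rose by 1.39 ± 0.124 against PBS, and Epcam was also called higher against PBS and LateDT. Cd207 (langerin) fell by 1.52 on the log2 scale against PBS and by 1.57 against LateDT. In PBS, Cd74 and Epcam stood at 126 and 198 CPM and Cd207 at 4.02 CPM. Which cells carried the Cd74 and Epcam reads was not tested. All 4 tested NK cell markers rose in both comparisons, Klrk1 by 1.83 ± 0.241 against PBS. Eomes, Ncr1 and Klrb1c held at most 4 counts in any mouse outside FullDT and were tested only because they were high in FullDT. Of 5 Treg markers, Il2ra (3.02 ± 0.464), Tnfrsf18 (0.95 ± 0.109) and Ikzf2 (0.94 ± 0.151) rose against PBS, while Foxp3 and Ctla4 did not pass.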
